A study of Mus musculus with 15 samples.

Results

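AP-1 is a family of transcription factors that act as dimers of basic leucine zipper (bZIP) proteins, and 10 of its genes are described here in mouse LSK cells (sorted stem and progenitor cells of the blood): Fos, Fosb, Fosl1, Fosl2, Jun, Junb, Jund, Atf3, Batf and Batf3. The members were chosen by name, as probe sets whose only gene symbol was a listed one, with the brightest probe set per gene. By this rule 9 of the 10 were measured, among 22180 genes in all. Fosl1 shared its probe set with another gene and was not analysed here. The 3 groups were LSK cells cultured for 18 h with extracellular vesicles (EV) from AFT stromal cells, LSK cells cultured for 18 h without EV, and non-cultured LSK cells taken after cell sorting. Each group had 5 biological replicates, each on 1 Affymetrix Mouse Gene 2.0 array. The culture medium was MyeloCult M5300, per the labels, and the labels give no strain, age or pooling of animals.

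AP-1 dimers bind short DNA elements and switch genes on or off after growth factor, cytokine or stress signals. Fos proteins pair with Jun proteins, whereas Jun proteins can also pair with one another, and ATF3 and the BATF proteins join the same network as partners that often restrain it. Fos, Fosb, Jun, Junb and Atf3 are classic immediate early genes: MAP kinase signals induce them within minutes, with no need for new protein synthesis, and their transcripts decay fast. In blood cells of the mouse, Junb limits the expansion of myeloid progenitors, Batf directs lymphoid differentiation and Batf3 is needed for cross-presenting dendritic cells.

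Array medians lay between 4.62 and 4.74 on the log2 scale, and the mean correlation of an array with its group was between 0.964 and 0.983, lowest for replicate 1 with EV. Non-cultured replicates 4 and 5 stood apart from replicates 1 to 3. Deviations from the group mean correlated at 0.09 between replicates 4 and 5, and at -0.13 to -0.04 among replicates 1 to 3. Across these sets the values were -0.43 to -0.29. Deviations from a shared mean tend towards negative correlation by construction, so the values are read against one another. Mean log2 signal of 6 granulocyte markers was 5.23 to 5.34 in non-cultured replicates 4 and 5, and 6.78 to 6.98 in replicates 1 to 3. Kit had log2 signals of 9.52 to 10.03 with EV, 9.87 to 10.1 without EV and 9.25 to 9.89 in non-cultured cells, and Cd34 lay between 10.2 and 10.7 on the 15 arrays. The 9 measured LSK markers averaged 7.66 to 7.94 with EV, 7.86 to 7.98 without EV and 7.67 to 8.08 in non-cultured cells, with Slamf1 the dimmest at 3.41 to 4.87. These means cover opposite changes: against non-cultured cells Flt3 rose (log2 0.65 with EV and 0.63 without EV), Hlf fell with EV (-0.38), and without EV Gata2 (0.69) and Kit (0.39) rose and Cd48 fell (-0.80). T and NK cell markers averaged 3.76 to 4.17 and B cell markers 3.93 to 4.64 over all arrays.

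Markers of myeloid cells moved with culture. Of 6 monocyte and macrophage markers, 5 were called higher in each culture comparison, and their mean log2 signal was 7.85 to 8.29 with EV and 7.93 to 8.34 without EV, against 6.76 to 6.87 in non-cultured cells. The 6 granulocyte markers averaged 6.75 to 7.50 with EV and 6.80 to 7.60 without EV, against 5.23 to 6.98 in non-cultured cells. Only 2 of the 6 were called higher in each culture comparison, S100a8 (log2 2.67 with EV and 2.75 without EV) and S100a9 (2.42 and 2.43). The other granulocyte markers were not called. The part of these myeloid markers in the differences of AP-1 members between cultured and non-cultured cells was not tested.

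Of the 9 measured members, 7 were lower in cultured LSK cells, with or without EV, and none was called higher. Fos, Fosb, Fosl2, Jun, Junb, Jund and Atf3 were lower after 18 h in culture than in non-cultured cells, by 4.2-fold (Fosl2) to 22.4-fold (Fosb) without EV and by 4.33-fold (Jund) to 21.7-fold (Fosb) with EV. Batf and Batf3 did not pass the test in either comparison, and no member passed between cells with EV and cells without EV. A gene was called where limma gave an adjusted p under 0.05, with the Benjamini-Hochberg method applied to all genes. Without EV against non-cultured, 7 members were lower and 0 higher, where 6.88% of all genes were called lower and 6.75% higher. With EV against non-cultured the counts were again 7 and 0, where 7.85% of all genes were called lower and 6.28% higher. The median log2 fold change of the 9 members was -2.51 without EV and -2.26 with EV, beside medians over all genes of 0.01 and 0.04. Both comparisons share the same 5 non-cultured arrays. A fall here means a lower signal in cultured cells than in cells taken after sorting. Effects of sorting on the non-cultured cells and effects of culture were not tested apart. As in any bulk sample, fewer cells of a type and less RNA per cell cannot be told apart.

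**Figure D1:**
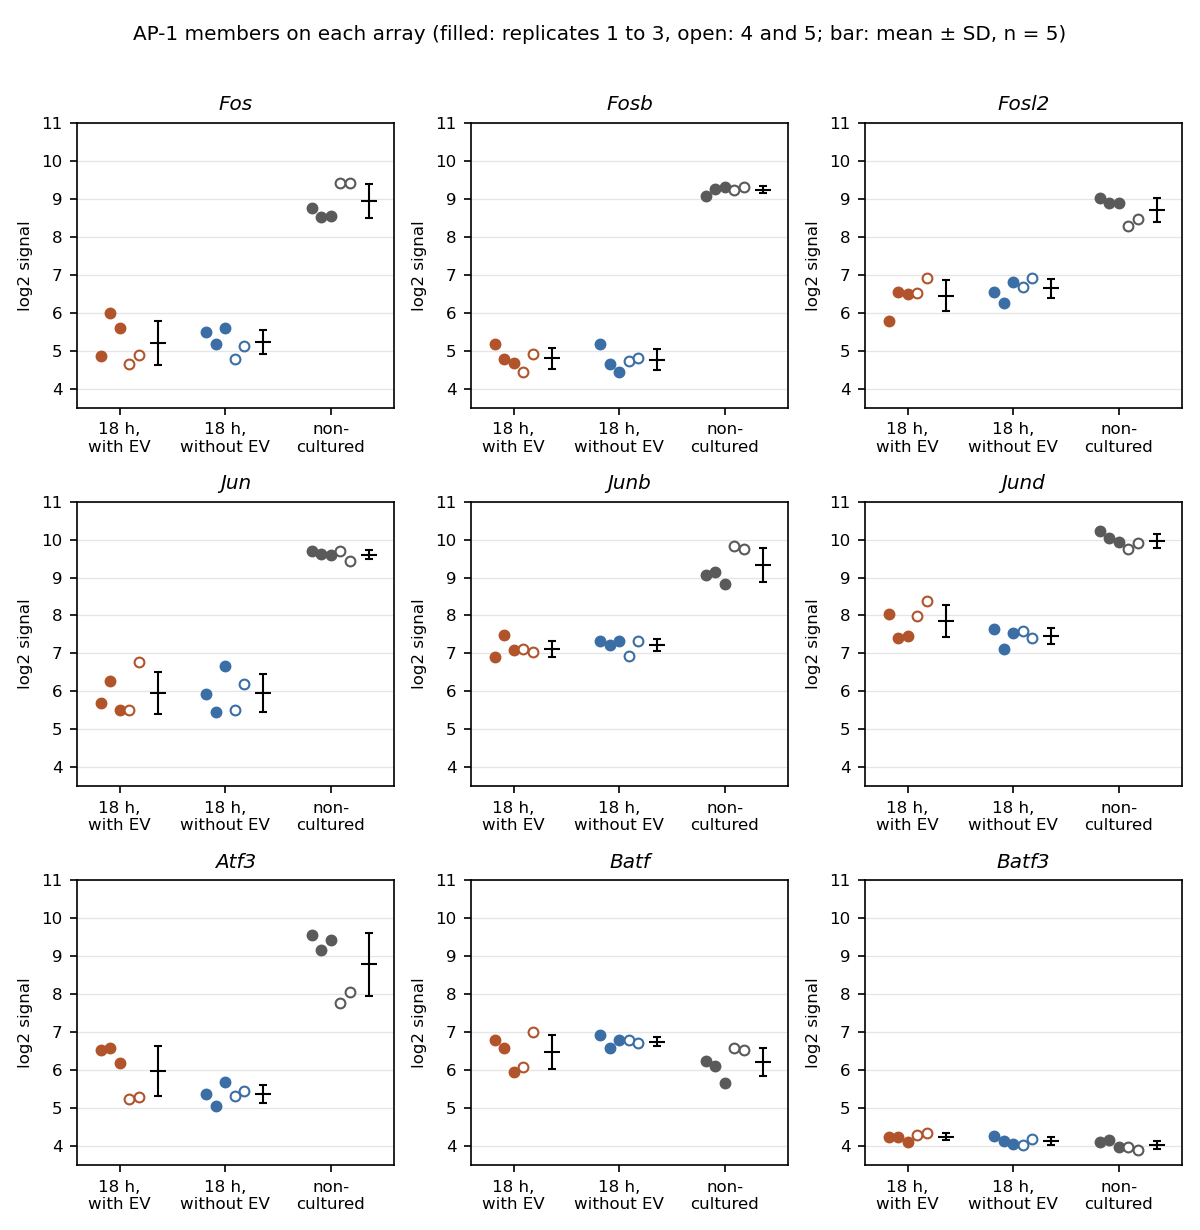
Log2 signal of the 9 measured AP-1 members on each of the 15 arrays, by group (filled points, replicates 1 to 3; open points, replicates 4 and 5; black bars, mean ± SD, n = 5 per group). For 7 members all 10 cultured arrays lie below all 5 non-cultured ones, where 11.2% of all genes with EV and 12.0% without EV had no overlap with the non-cultured group. Batf and Batf3 differ less between the groups, and Batf without EV lies just above the non-cultured arrays, with no overlap.

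The Fos proteins are the partners that cannot pair among themselves and depend on Jun. Fos, the founding member, had log2 signals of 4.85, 6.0, 5.60, 4.66 and 4.88 with EV (replicates 1 to 5) and 5.49, 5.18, 5.60, 4.78 and 5.11 without EV, against 8.76, 8.53, 8.56, 9.41 and 9.42 in non-cultured cells. The cultured groups overlapped each other and neither reached the non-cultured one. Fos fell 13.3-fold with EV (log2 -3.74, SE 0.26, limma adjusted p = 8.23e-08) and 13-fold without EV (log2 -3.71, SE 0.26, adjusted p = 8.64e-08) relative to non-cultured cells, and both falls ranked 10 among the 22180 genes.

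Fosb, which is induced with Fos and also makes a shorter splice form, had signals of 5.17, 4.79, 4.67, 4.43 and 4.92 with EV and 5.19, 4.64, 4.45, 4.72 and 4.80 without EV, against 9.08, 9.27, 9.32, 9.23 and 9.31 in non-cultured cells. Its non-cultured arrays were the tightest of the Fos genes (SD 0.10). Relative to non-cultured cells, Fosb fell by 4.44 on the log2 scale with EV (SE 0.14, limma adjusted p = 1.48e-11) and by 4.48 without EV (adjusted p = 1.29e-11), and both falls ranked 4 among all genes.

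Fosl2, which encodes FRA-2, a Fos protein that lacks a strong activation domain, also fell. Its signals were 5.79, 6.55, 6.50, 6.51 and 6.91 with EV and 6.54, 6.26, 6.82, 6.68 and 6.91 without EV, against 9.03, 8.89, 8.88, 8.29 and 8.48 in non-cultured cells. Replicate 1 was the lowest array with EV, and the groups with and without EV overlapped. Relative to non-cultured cells, Fosl2 fell 4.8-fold with EV (log2 -2.26, SE 0.19, limma adjusted p = 8.11e-07) and 4.2-fold without EV (log2 -2.07, adjusted p = 2.15e-06).

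The 3 Jun genes encode the partners that every Fos protein needs. Jun, the strongest activator among them, had signals of 5.69, 6.27, 5.51, 5.51 and 6.77 with EV and 5.93, 5.47, 6.66, 5.51 and 6.19 without EV, against 9.69, 9.63, 9.58, 9.70 and 9.43 in non-cultured cells. Cultured arrays were spread more widely (SD 0.55 with EV and 0.50 without EV) than non-cultured ones (SD 0.11). Jun fell 12.6-fold relative to non-cultured cells both with EV (log2 -3.65, SE 0.25, limma adjusted p = 5.77e-08) and without EV (adjusted p = 5.47e-08).

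Junb, which can oppose Jun at some target genes, had signals of 6.91, 7.47, 7.09, 7.11 and 7.05 with EV and 7.32, 7.21, 7.32, 6.94 and 7.33 without EV, against 9.08, 9.15, 8.84, 9.84 and 9.75 in non-cultured cells. The cultured groups overlapped each other, and non-cultured replicates 4 and 5 were the highest arrays. Relative to non-cultured cells, Junb fell 4.61-fold with EV (log2 -2.20, SE 0.17, limma adjusted p = 3.36e-07) and 4.31-fold without EV (log2 -2.11, adjusted p = 5.56e-07).

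Jund, which many resting cells express steadily, had signals of 8.05, 7.40, 7.46, 7.98 and 8.38 with EV and 7.65, 7.13, 7.53, 7.58 and 7.42 without EV, against 10.23, 10.03, 9.94, 9.74 and 9.90 in non-cultured cells. It fell 4.33-fold with EV (log2 -2.11, SE 0.17, limma adjusted p = 3.88e-07) and 5.68-fold without EV (log2 -2.51, adjusted p = 5.28e-08), so this member was lower in culture together with the inducible ones. A second, dimmer Jund probe set lay at 5.95 to 6.31 with EV and 5.80 to 6.02 without EV, against 7.38 to 7.81 in non-cultured cells, differences of -1.39 and -1.61 on the log2 scale. Both probe sets of Jund were therefore lower on every cultured array than on any non-cultured one.

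Atf3, which encodes a stress-induced bZIP factor that represses as a homodimer, had the largest SD of the 9 members with EV (0.65) and in non-cultured cells (0.83). Its signals were 6.54, 6.58, 6.17, 5.25 and 5.30 with EV and 5.38, 5.05, 5.68, 5.31 and 5.44 without EV, against 9.55, 9.16, 9.43, 7.76 and 8.05 in non-cultured cells. Replicates 1 to 3 with EV lay above all 5 arrays without EV, replicates 4 and 5 with EV lay within their range, and in non-cultured cells replicates 4 and 5 were again the lower ones. Atf3 fell 7.07-fold with EV (log2 -2.82, SE 0.35, limma adjusted p = 3.7e-05) and 10.7-fold without EV (log2 -3.42, adjusted p = 5.55e-06) relative to non-cultured cells.

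Batf and Batf3 encode small bZIP proteins without an activation domain, which pair with Jun proteins and bind DNA together with IRF4 or IRF8 in lymphocytes and dendritic cells. Batf had signals of 6.79, 6.57, 5.95, 6.08 and 7.0 with EV and 6.91, 6.58, 6.79, 6.78 and 6.70 without EV, against 6.23, 6.12, 5.66, 6.57 and 6.52 in non-cultured cells. The group without EV lay just above the non-cultured one, with no overlap, while the group with EV spanned both. The difference without EV against non-cultured was 0.53 on the log2 scale (SE 0.20, 95% interval 0.11 to 0.96, limma adjusted p = 0.0951), and with EV against non-cultured it was 0.26 (95% interval -0.16 to 0.68, adjusted p = 0.46).

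Batf3 was the dimmest member, at 4.23, 4.25, 4.12, 4.28 and 4.35 with EV and 4.26, 4.13, 4.06, 4.01 and 4.19 without EV, against 4.10, 4.15, 3.98, 3.98 and 3.89 in non-cultured cells. All 15 values lay below the array medians, and no measure of background is given with the values. The difference with EV against non-cultured was 0.23 on the log2 scale (SE 0.08, limma adjusted p = 0.0693), and without EV it was 0.11 (adjusted p = 0.476).

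Non-cultured replicates 4 and 5 did not move in 1 direction across the family. In these arrays Fos, Junb and Batf were higher than in each of replicates 1 to 3, and Fosl2, Jund, Atf3 and Batf3 were lower, so 7 of 9 members separated the sets, where 25.4% of all genes did. The gap was widest for Atf3, at 7.76 and 8.05 in replicates 4 and 5, and 9.16 to 9.55 in replicates 1 to 3. Fosb and Jun showed no such gap. With non-cultured replicates 4 and 5 alone as the comparison group, all 7 falls kept their call, and Atf3 fell 3.83-fold with EV (log2 -1.94, limma adjusted p = 0.00381) and 5.8-fold without EV (log2 -2.54, adjusted p = 0.000538). With replicates 1 to 3 alone, Atf3 fell 10.6-fold with EV (log2 -3.41) and 16.1-fold without EV (log2 -4.01), and Fos fell by 3.42 and 3.39 on the log2 scale, against falls of 4.22 and 4.19 with replicates 4 and 5 alone. The part of granulocyte marker signal in these gaps was not tested.

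The comparison with EV against without EV asks whether the vesicles changed the members in cultured cells. None of the 9 passed (limma), where 0.18% of all genes were called higher and 0.018% lower. An unadjusted p under 0.05 was found for 1 of the 9, Jund, and for 1513 of all 22180 genes. Jund differed by 0.39 on the log2 scale (SE 0.17, 95% interval 0.03 to 0.75, limma adjusted p = 0.699) and was higher in 18 of 25 pairs of arrays. Its second probe set differed by 0.22. The SE of Jund pools the spread of the non-cultured arrays (SD 0.1785) with those with EV (0.415) and without EV (0.2063). The Jund interval may therefore be too narrow. Atf3 differed by 0.60 (SE 0.35, 95% interval -0.14 to 1.34, adjusted p = 0.773) and was higher in 17 of 25 pairs. This SE includes the spread of the non-cultured arrays (SD 0.83). With only non-cultured replicates 1 to 3 in the fit, the SE was 0.25 (limma adjusted p = 0.688). With only replicates 4 and 5 it was 0.26 (adjusted p = 0.759).

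For the other members the intervals give a range for any effect of EV, not a firm bound. Their SE pools the spread of all groups, including the non-cultured arrays. For Jun the SD was 0.55 with EV and 0.50 without EV, against 0.11 in non-cultured cells. For Fosb it was 0.28 and 0.27, against 0.10. The intervals of Jun and Fosb may therefore be too narrow. The non-cultured SD was the largest for Junb (0.44, against 0.21 and 0.16) and Batf3 (0.104, against 0.086 and 0.0985). The 95% interval was -0.26 to 0.34 for Fosb, -0.59 to 0.52 for Fos, -0.60 to 0.22 for Fosl2, -0.53 to 0.53 for Jun and -0.47 to 0.27 for Junb, all on the log2 scale. Batf differed by -0.27 (95% interval -0.70 to 0.15, limma adjusted p = 0.823) and Batf3 by 0.12 (95% interval -0.05 to 0.29, adjusted p = 0.806). All of these intervals include 0, and none reaches the size of the falls in culture of the same gene for the 5 members listed first.

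**Figure D2:**
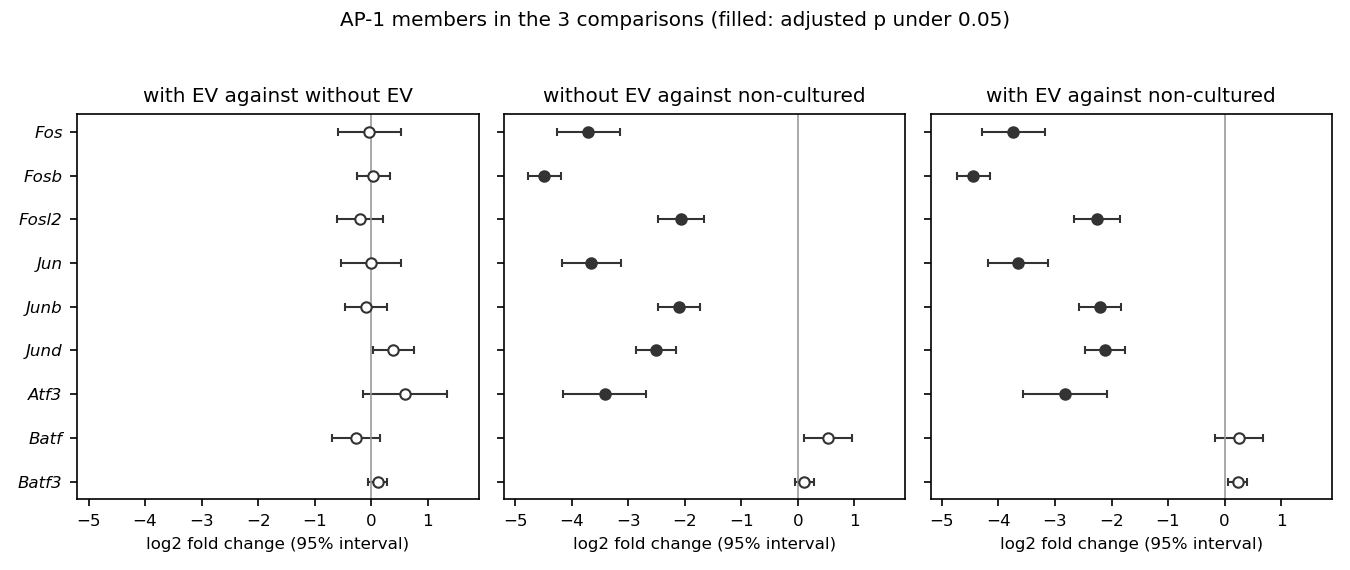
Log2 fold change of the 9 measured members in each comparison, with its 95% interval from limma's moderated error (filled points, adjusted p under 0.05 over all genes). The 7 filled points of both culture comparisons lie between -4.48 and -2.07, and every point with EV against without EV is open.

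The promoter sequences of the 4 members with the largest falls without EV are shown with that of Batf, which did not fall, from RefSeq on GRCm38.p6. Each runs from 250 bases before to 50 bases after the annotated start site, 5′ to 3′ on the gene's strand, and capitals mark matches on either strand to TGACNTCA (an element bound by AP-1 and ATF dimers), TGACG (the core of the cyclic AMP response element), TATAAA and GGGCGG (the GC box).
Fos (chr12:85473640-85473939, plus strand): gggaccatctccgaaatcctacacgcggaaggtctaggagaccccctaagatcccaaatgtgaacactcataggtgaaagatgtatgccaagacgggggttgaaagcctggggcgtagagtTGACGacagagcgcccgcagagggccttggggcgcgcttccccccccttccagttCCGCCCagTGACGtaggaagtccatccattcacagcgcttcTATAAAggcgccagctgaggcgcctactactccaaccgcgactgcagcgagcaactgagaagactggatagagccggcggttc
Fosb (chr7:19309996-19310295, minus strand): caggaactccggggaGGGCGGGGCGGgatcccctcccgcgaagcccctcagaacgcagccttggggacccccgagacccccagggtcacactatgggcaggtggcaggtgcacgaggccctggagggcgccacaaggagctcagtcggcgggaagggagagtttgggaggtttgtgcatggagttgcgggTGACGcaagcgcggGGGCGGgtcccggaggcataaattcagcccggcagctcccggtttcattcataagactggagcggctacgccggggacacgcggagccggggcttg
Jun (chr4:95052173-95052472, minus strand): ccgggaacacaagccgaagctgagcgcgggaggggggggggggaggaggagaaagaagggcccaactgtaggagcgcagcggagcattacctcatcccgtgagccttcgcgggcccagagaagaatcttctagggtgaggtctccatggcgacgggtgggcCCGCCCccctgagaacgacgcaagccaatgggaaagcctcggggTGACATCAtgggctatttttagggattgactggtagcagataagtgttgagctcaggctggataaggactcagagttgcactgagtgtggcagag
Atf3 (chr1:191183284-191183583, minus strand): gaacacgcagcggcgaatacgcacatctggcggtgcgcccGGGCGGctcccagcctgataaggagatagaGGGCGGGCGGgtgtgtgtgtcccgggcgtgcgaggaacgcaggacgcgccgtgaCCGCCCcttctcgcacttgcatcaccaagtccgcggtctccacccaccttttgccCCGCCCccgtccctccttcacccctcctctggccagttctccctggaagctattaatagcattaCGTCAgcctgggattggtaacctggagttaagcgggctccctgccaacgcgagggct
Batf (chr12:85686470-85686769, plus strand): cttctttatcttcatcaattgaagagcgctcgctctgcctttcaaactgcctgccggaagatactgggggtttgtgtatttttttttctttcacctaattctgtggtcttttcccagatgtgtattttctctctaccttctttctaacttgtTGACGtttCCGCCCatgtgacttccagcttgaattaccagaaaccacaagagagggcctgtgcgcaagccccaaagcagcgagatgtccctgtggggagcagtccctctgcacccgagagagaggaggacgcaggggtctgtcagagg

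All 9 measured members had a promoter window in the RefSeq table. The match in Jun is TGACATCA, which begins 45 bases before the start site, and Jun was the only member with TGACNTCA, a motif in 8.83% of all 32851 windows. TGACG was found in 5 members (Fos, Fosb, Junb, Atf3 and Batf) and in 20.8% of all windows, and GGGCGG in 7 members and 35.7% of windows. TATAAA was found in Fos and Junb, and in 13.6% of windows. TGANTCA, the classic AP-1 element, was in none of the 9 and in 7.81% of windows, and the CArG box, to which serum response factor binds, in none of the 9 and in 1.63%. TGACG overlaps TGACNTCA where N is G. These matches describe the letters in this window only. Batf held both TGACG and GGGCGG, and Jund held none of the motifs searched. The part of these motifs in the differences between the groups was not tested.

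**Figure D3:**
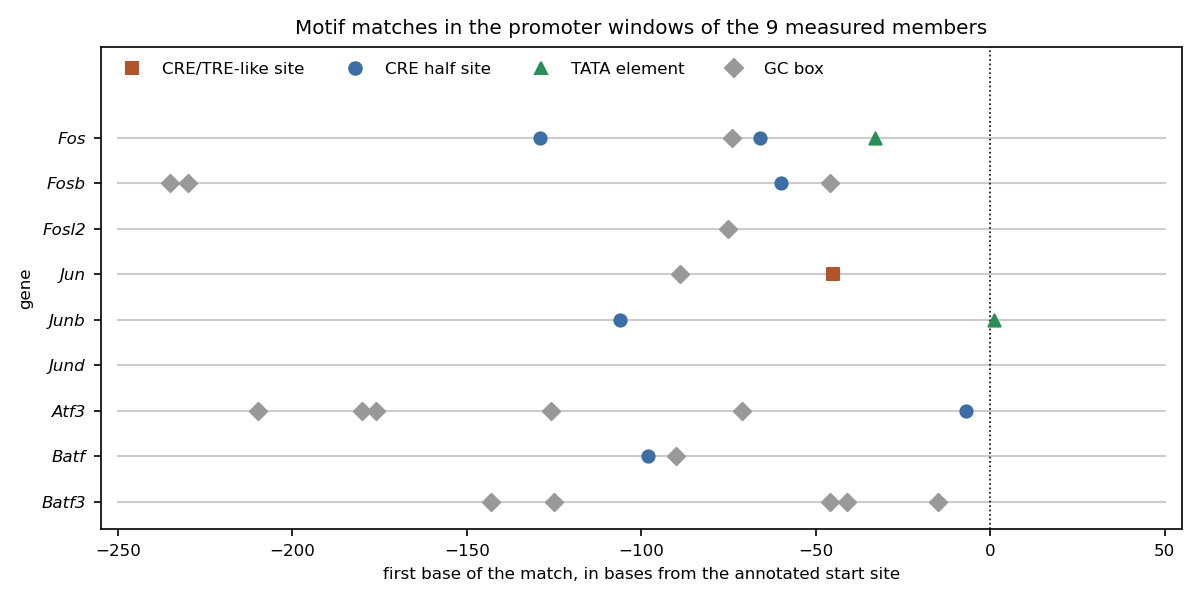
Motif matches in the promoter windows of the 9 measured members, by distance in bases from the annotated start site (squares, TGACNTCA; circles, TGACG; triangles, TATAAA; diamonds, GGGCGG). The core element TGACG appears in 5 members and no motif is found in Jund.

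Members that lie side by side in the genome differed in their calls. Fos and Batf are separated on chromosome 12 by a single protein-coding gene, Jdp2, which encodes another bZIP partner and repressor of Jun proteins and was picked here for its position. Fos fell, whereas Jdp2 differed by 0.22 on the log2 scale with EV against non-cultured (SE 0.20, limma adjusted p = 0.548) and by 0.07 without EV (adjusted p = 0.895), and Batf did not pass. Atf3 and Batf3 are likewise separated by 1 protein-coding gene on chromosome 1, and Atf3 fell while Batf3 did not pass. Junb and Jund, both on chromosome 8 but 162 protein-coding genes apart, both fell.

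The genes whose pattern over the 15 arrays was most like each member were found by the root mean square (RMS) difference between log2 values, each gene centred on its own mean. A difference from culture of like size lowers this measure, so a shared fall follows in part from the choice. Nearest to Fos were Egr1 (0.36), an immediate early zinc finger factor, the activation marker Cd69 (0.44) and Ier2 (0.47), where the spread of Fos itself was 1.80. Nearest to Fosb were Nr4a2 (0.32) and Nr4a3 (0.41), which encode orphan nuclear receptors, and the kinase gene Plk2 (0.41), where the spread of Fosb was 2.11. Jun was most like Dntt, the terminal transferase of lymphoid progenitors (0.44), Plk2 (0.49) and Fos (0.50).

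The remaining members were compared in the same way. Fosl2 was nearest to Pola1, a DNA polymerase subunit (0.27), Tiparp (0.28) and Tnfaip3, an inhibitor of NF-kB signalling (0.28). Junb was nearest to the MAP kinase phosphatase gene Dusp1 (0.25), the kinesin Kif15 (0.26) and Tnfaip3 (0.28), and Jund to the cytokine Lif (0.30), Ticrr (0.31) and Pole (0.32), both of DNA replication. Atf3 was nearest to the decoy receptor Il1r2 (0.51), Trib1 (0.52) and Creb5 (0.61). All of these were, like Atf3, lower in non-cultured replicates 4 and 5 than in replicates 1 to 3. Those arrays were among the ones used to choose the genes, so this likeness is in part built in. Batf and Batf3 varied little (spread 0.38 and 0.13), and their nearest genes were Gtf2e1 (0.22) and Bicc1 (0.07), followed by Zfp414 and Tspan33 for Batf and by Rbp4 and Bcas1 for Batf3.

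**Figure D4:**
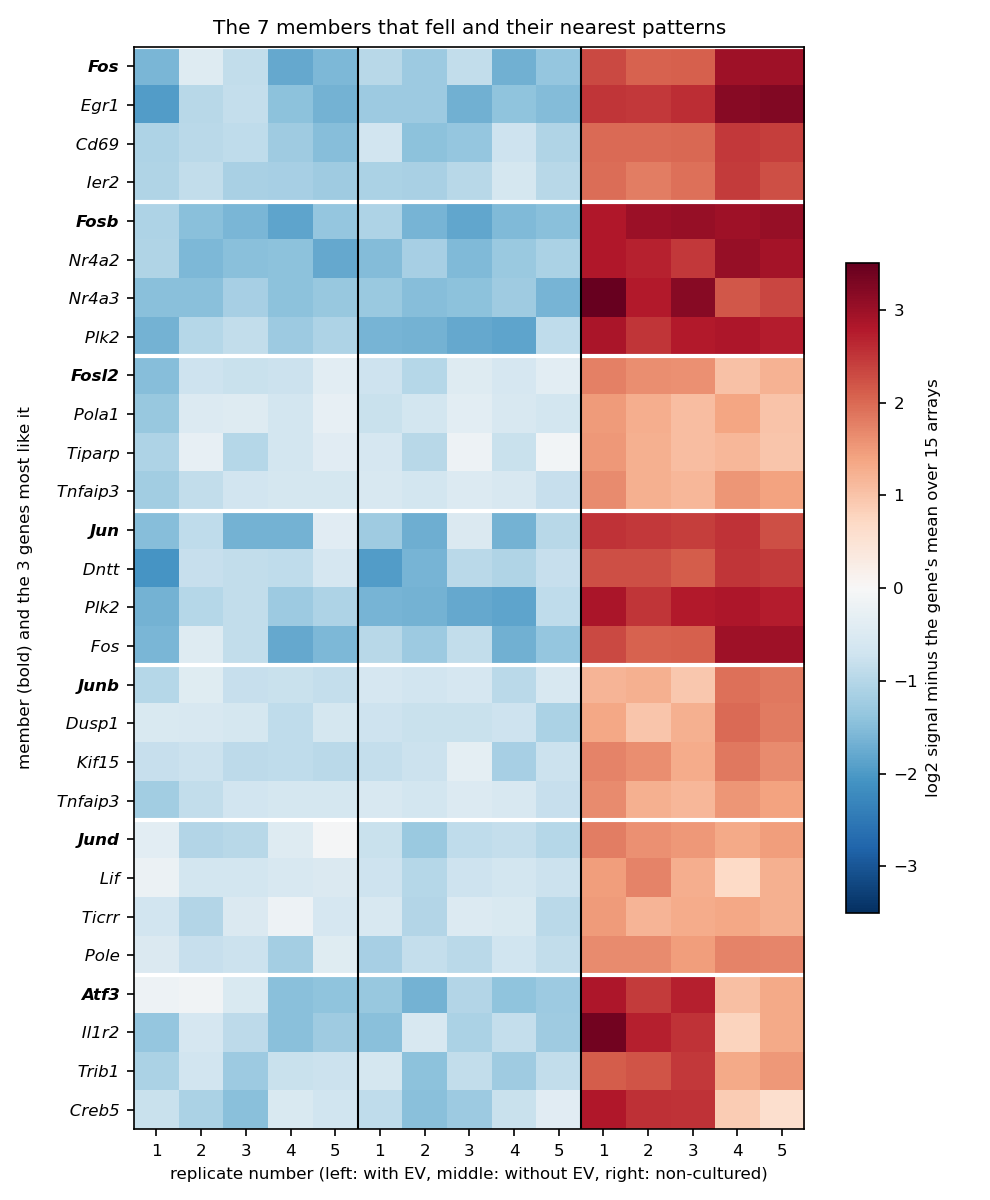
Log2 signal minus the gene's own mean over the 15 arrays (colour) for the 7 members that fell (bold) and the 3 genes most like each, with arrays in columns by group and replicate. All rows are high on the 5 non-cultured arrays, and some rows, such as Fosl2, Nr4a3, Atf3 and the 3 genes nearest to Atf3, are lower in non-cultured replicates 4 and 5 than in replicates 1 to 3, while others, such as Fos, Egr1 and Junb, are higher. The nearest genes were chosen over these same arrays.

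Other bZIP factors, which include further dimer partners of AP-1 proteins, moved both ways. Of 31 measured genes of other bZIP factors, 5 rose and 5 fell without EV against non-cultured (median log2 0.06), and 6 rose and 4 fell with EV, where 6.75% of all genes rose and 6.88% fell without EV, and 6.28% rose and 7.85% fell with EV. Atf4 (log2 -0.79 with EV and -0.95 without EV) and Ddit3 (-1.19 and -1.16), both of the integrated stress response, and Maff (-1.09 and -1.03), a small Maf protein, fell in both comparisons. Nfe2l2, the regulator of antioxidant genes (0.77 with EV and 0.84 without EV), and Nfe2, of the megakaryocyte lineage (0.80 and 0.89), rose in both. With non-cultured replicates 4 and 5 alone, 3 of the 31 were called with EV and 5 without EV. Of all 22180 genes, that fit called 548 higher and 821 lower with EV, and 678 higher and 760 lower without EV.

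Of 30 measured genes of the MAP kinase cascade, which activates AP-1 proteins and their genes, 2 rose and 6 fell with EV against non-cultured (median log2 -0.11), and 2 rose and 5 fell without EV (median -0.07). Of all genes, 6.28% rose and 7.85% fell with EV, and 6.75% rose and 6.88% fell without EV, so the share of the list that rose was near that of all genes. Mapk8, which encodes the Jun kinase JNK1, fell (log2 -1.08 with EV, limma adjusted p = 0.0031, and -0.77 without EV, adjusted p = 0.0288), as did Map3k8 (-0.74 and -0.72), Map2k3 (-0.44 and -0.54) and Map2k6 (-0.92 and -0.68). Mapkapk3 rose (0.52 with EV and 0.80 without EV). Only 1 of the 30 was called in each comparison with non-cultured replicates 4 and 5 alone. That fit called 548 of all 22180 genes higher and 821 lower with EV, and 678 and 760 without EV. Map2k1 differed by -0.52 with EV against without EV (adjusted p = 0.672).

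Of 11 measured factors that act at the Fos and Jun promoters, 2 rose and 3 fell with EV against non-cultured, and 4 rose and 1 fell without EV, beside 6.28% and 7.85% of all genes with EV and 6.75% and 6.88% without EV. The 5 calls of each comparison became 2 with non-cultured replicates 4 and 5 alone, and 3 to 6 on leaving out 1 array. With replicates 4 and 5 alone, 548 of all 22180 genes were higher and 821 lower with EV, and 678 and 760 without EV. Mef2c fell in both (log2 -1.25 with EV and -0.94 without EV), and Elk4, a partner of serum response factor, rose in both (0.48 and 0.69), as did Stat3 (0.34 in each). Srf, which encodes serum response factor, fell with EV (log2 -0.73, SE 0.17, limma adjusted p = 0.00795) and differed by -0.47 without EV (adjusted p = 0.0845). The difference for Srf with EV against without EV was -0.26 (adjusted p = 0.799).

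mRNA decay clears immediate early transcripts. Of 17 measured, 1 rose and 8 fell with EV against non-cultured (median log2 -0.37), and 3 rose and 8 fell without EV (median -0.33). The shares of all genes that fell were 7.85% with EV and 6.88% without EV, and 6.28% and 6.75% rose. Zfp36, which encodes the AU-rich element binding protein tristetraprolin and is itself immediate early, fell (log2 -1.54 with EV and -1.56 without EV, SE 0.10). The deadenylase genes Cnot7 (log2 -1.07 with EV and -0.88 without EV) and Cnot6 (-1.06 and -0.87) and the antiproliferative genes Btg1 (-0.81 and -0.77) and Btg2 (-1.91 and -2.13) fell too. With non-cultured replicates 4 and 5 alone, 5 of the 17 were called in each comparison. Of all 22180 genes, 548 were then higher and 821 lower with EV, and 678 and 760 without EV.

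Of 9 measured genes of AP-1 protein turnover and cofactors, 0 were called with EV against non-cultured and 1 rose without EV, a count near the background of 6.28% higher and 7.85% lower with EV and 6.75% and 6.88% without EV. The call was Ep300, a histone acetyltransferase (log2 0.25, SE 0.08, limma adjusted p = 0.0454). No gene of the list was called without EV under median centring, without the dimmest 40% of genes, with trended and robust moderation, or with either set of non-cultured replicates alone. Fbxw7, which encodes part of a ubiquitin ligase for Jun, differed by -0.39 with EV against non-cultured (adjusted p = 0.0767). Of 14 measured DNA-binding partners of AP-1, 1 rose and 2 fell with EV, and 1 rose and 1 fell without EV, shares near those of all genes (6.28% and 7.85% with EV, 6.75% and 6.88% without EV). Irf8, a partner of BATF proteins and a factor of the monocyte and dendritic lineages, rose (log2 1.80 with EV and 1.63 without EV, SE 0.26), and Ets2 fell (-1.90 and -1.74, SE 0.22). The monocyte and macrophage markers given above, 5 of 6 called higher, moved with Irf8. Of 4 dendritic cell markers, 1 rose with EV, and 1 rose and 1 fell without EV. The part of these markers in the result for Irf8 was not tested.

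Genes often described as AP-1 targets moved both ways. Of 28 measured, 3 rose and 9 fell with EV against non-cultured, and 4 rose and 11 fell without EV, with medians of -0.07 and -0.08 on the log2 scale. Of all genes, 6.28% rose and 7.85% fell with EV, and 6.75% rose and 6.88% fell without EV. Ptgs2, the inducible cyclooxygenase (log2 -5.01 with EV and -4.98 without EV), the cytokine gene Lif (-1.79 and -2.04) and the ornithine decarboxylase gene Odc1 (-1.58 and -1.62) fell. Hmox1, which encodes heme oxygenase (5.40 with EV and 5.25 without EV), and the metallothionein gene Mt1 (1.33 and 1.32) rose while 7 AP-1 members were lower. Most of these targets also answer to other factors, such as NF-kB or NRF2, and which factors acted on them here was not tested. Ccnd1, which encodes cyclin D1, fell without EV (log2 -1.09, SE 0.20, limma adjusted p = 0.00117), differed by -0.45 with EV against non-cultured (adjusted p = 0.164), and differed by 0.65 with EV against without EV (adjusted p = 0.492). None of the 140 genes in these 7 lists passed with EV against without EV.

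**Figure D5:**
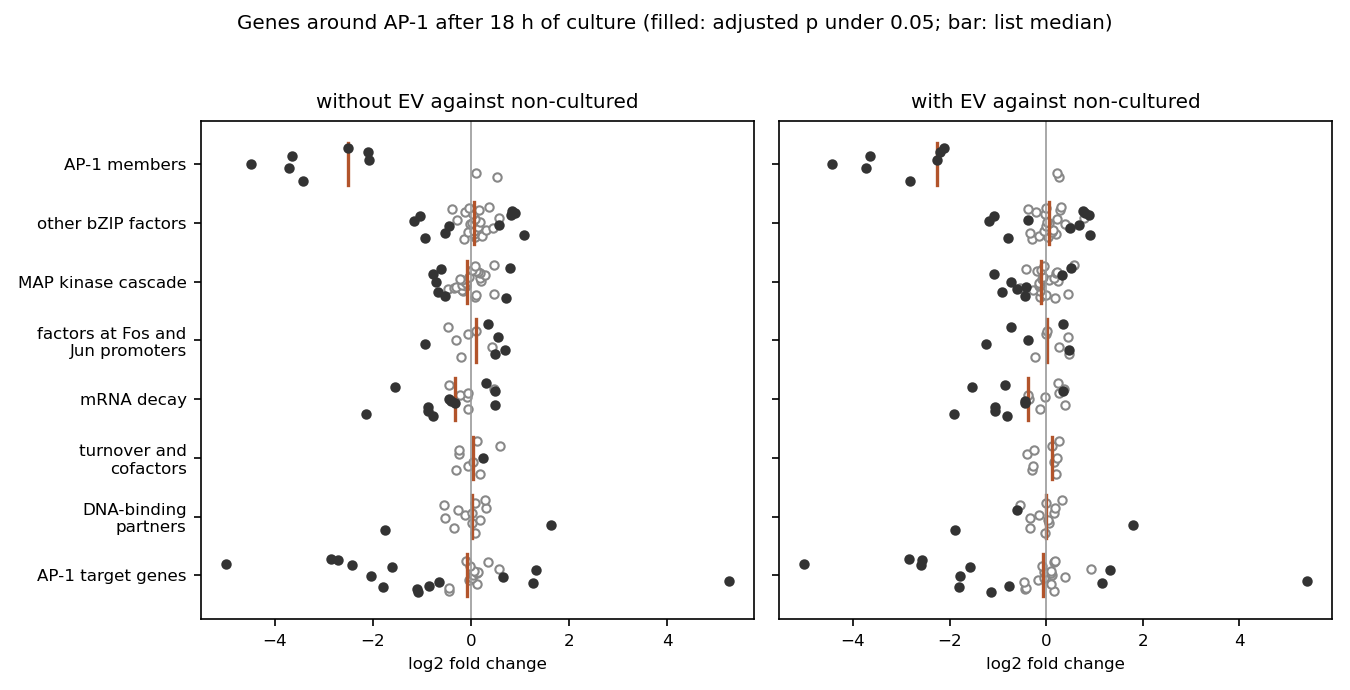
Log2 fold change of the measured AP-1 members and of 7 lists of related genes, without EV (left) and with EV (right) against non-cultured cells (filled points, adjusted p under 0.05; bars, list medians). The medians of the 7 lists lie between -0.37 and 0.12, and that of the AP-1 members lies at -2.51 without EV and -2.26 with EV.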

How the data were processed

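RNA of 15 LSK samples (3 groups of 5) was measured on Affymetrix Mouse Gene 2.0 arrays. The deposited table holds 1 value per probe set and array on a scale read as log2 from its range (1.40 to 13.0), since no log base is stated. MAS5 is named, with no role or version, per the submitters' processing notes, and the authors' normalization is not given in the sources used here. Values were used as deposited, and the number of arrays limits the precision. Of 41345 probe sets, 23521 had 1 gene symbol, 1814 several and 16010 none in the platform annotation used. The brightest probe set represented each of 22180 genes. limma 3.58.1 (R 4.3.3) was fitted to all 15 arrays with 1 mean per group and moderated errors (12 residual and 3.66 prior degrees of freedom), two-sided, with Benjamini-Hochberg adjustment over all genes, an adjusted p under 0.05 and no minimum fold. The fit was tested on simulated data.

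Named genes were the members, up to 5 genes per list with the smallest adjusted p without EV against non-cultured and up to 2 with EV against without EV, and the 3 genes most like each member (predicted genes, small RNA genes and receptor segments passed over). Jdp2 and the marker genes were named in addition. The members and lists were chosen with earlier results of these data known. Promoter windows came from RefSeq (GRCm38.p6), which gave 32851 windows. Alternatives were quantile normalization, median centring, leaving out the dimmest 40% of genes, the mean of a gene's probe sets, trended and robust moderation, each pair of groups alone, the replicate number as a block and leaving out each array. Splitting the non-cultured replicates and weighting arrays were chosen after seeing the data.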

Additional observations from a re-analysis of the deposited data

How the results depend on the processing

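The 7 members lower in culture kept that call in both comparisons under all 25 alternatives, in 350 of 350 values, and no member was called with EV against without EV in any of 224. Batf was called higher without EV against non-cultured, giving 1 member higher instead of 0, with these 2 groups alone (log2 0.53, limma adjusted p = 0.0442) and with non-cultured replicates 1 to 3 alone (0.75, adjusted p = 0.0357), and its adjusted p ranged from 0.0357 to 0.792. With non-cultured replicates 4 and 5 alone, Batf with EV against non-cultured turned to -0.0676. Among differences with EV against without EV that lay near 0, Jun turned to 0.0217 under quantile normalization and 0.0153 with array weights, Fosb to -0.0060 under median centring and Fos to 0.0829 with array weights. Leaving out 1 array at a time, they ranged from -0.23 to 0.10 (Fos), -0.0534 to 0.15 (Fosb) and -0.21 to 0.18 (Jun).

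Of all genes, 4 were lower with EV against without EV, 2 under quantile normalization, 0 with the 2 groups alone, 0 with non-cultured replicates 4 and 5 alone, and 0 to 4 leaving out 1 array (0 without replicate 2 of the group without EV), while 29 to 50 were higher. With non-cultured replicates 4 and 5 alone, 548 genes were higher and 821 lower with EV, and 678 higher and 760 lower without EV. The fewer arrays in that fit reduce what it can call. It called 3 other bZIP genes with EV and 5 without EV (10 in each with all arrays), 1 and 1 of the MAP kinase cascade (8 and 7), 2 and 2 promoter factors (5 and 5) and 5 and 5 mRNA decay genes (9 and 11). Promoter factors without EV numbered 3 under median centring and 3 with non-cultured replicates 1 to 3 alone. For turnover and cofactors, 1 was called with EV under quantile normalization, and without EV 0 under median centring, without the dimmest 40%, with trended and robust moderation and with either set of non-cultured replicates, and 2 with array weights. DNA-binding partners with EV numbered 5 under quantile normalization, without the dimmest 40% and with array weights (3 with all arrays).

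Leaving out 1 array, MAP kinase calls ranged from 5 to 8 with EV (5 without non-cultured replicate 1, 2 or 3, or replicate 4 with EV) and from 4 to 9 without EV (4 without non-cultured replicate 1, 2 or 3). Promoter factors ranged from 3 to 6 in both comparisons (3 with EV without non-cultured replicate 2, and 3 without EV on leaving out non-cultured replicate 1 or 2, or replicate 2 or 4 without EV). Turnover genes ranged from 0 to 1 with EV (1 without replicate 4 with EV) and from 0 to 2 without EV, where leaving out any of 11 arrays changed the count. DNA-binding partners without EV ranged from 2 to 4 (4 without replicate 2 of the group without EV).

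With the replicate number as a block, 35 genes were higher and 4 lower with EV against without EV, 1499 and 1488 without EV against non-cultured, and 1349 and 1714 with EV against non-cultured, and member counts were again 0, 7 and 7. Deviations of same-numbered samples correlated weakly at most (r from -0.095 to 0.169, over 0.1 in 1 of 15 pairs), and the numbers were not taken as pairs. Between the groups with EV and without EV, r was positive for every replicate number, from 0.0315 to 0.1686. Differently numbered samples of different groups were not compared, so a weak pairing of the cultured groups was not tested. Signal over background is unknown, which limits Batf3 in all groups. It also limits the sizes of the falls of Fosb and Fos. Their lowest cultured signals (4.43 and 4.66) lay near the array medians (4.62 to 4.74).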
